A study of Rattus norvegicus with 54 samples.

Results

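The remote zone of cell sheet-treated hearts was compared with the same zone of sham-operated hearts, 6 libraries against 6, which are 12 of the 54 libraries of the series. The libraries were chosen by their labels alone: treatment (MI with cell sheet, or sham) and tissue region (remote). The series holds RNA from 18 female athymic rats of the strain F344/NJcl-rnu/rnu, operated on at 8 weeks of age and explanted 1 week later, with 3 left ventricular pieces per heart. MI was made by complete ligation of the proximal left anterior descending artery (LAD), and in the cell sheet group the sheet was laid on the epicardium over the ischemic area during that operation. Sham rats had a sham operation and no treatment. Cell sheet hearts thus differed from sham hearts in the infarction as well as in the sheet, and this comparison cannot tell them apart.

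The sheet is bi-level: one layer of human endothelial progenitor cells and one of smooth muscle cells that were trans-differentiated from human mesenchymal stem cells. The rats lack a thymus and with it normal T cells, which is what lets a human graft stay, and both groups share that background. The remote piece lay below the level of the ligation stitch and away from the infarct, which puts it away from where the sheet was laid. Reads were counted on rat genes, and RNA of the human cells was not analysed here. Whether reads of human cells were counted on rat genes was not tested. Replicates are labelled as technical, whereas the study describes separate hearts. The p-values measure the spread between these libraries, which may be technical in part. The remote piece of untreated MI hearts, also 6 libraries, is given beside the comparison.

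Vascular smooth muscle cells wrap arteries and arterioles and, with pericytes, make up the mural cells of vessels. Their contractile state is defined by a set of proteins that includes a smooth muscle myosin heavy chain (Myh11), smooth muscle actins (Acta2, Actg2), calponin (Cnn1), transgelin (Tagln), leiomodin (Lmod1) and the beta subunit of the large calcium-activated potassium channel (Kcnmb1). Many of these genes are driven by serum response factor and its coactivator myocardin (Myocd), which bind CArG boxes in their regulatory DNA. Activated fibroblasts that become myofibroblasts also express Acta2, Tagln and Cnn1, so those genes do not tell the 2 cell types apart, whereas Myh11 and Kcnmb1 are more restricted to smooth muscle. In bulk tissue, fewer cells of a type and less RNA per cell cannot be told apart.

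Myh11 was the 1 gene to pass the adjusted test with edgeR on all libraries. As 8 other genes of its contractile set also did not overlap between groups, promoter sequence of that set is shown first. RefSeq (GRCr8 table, a later assembly than the mRatBN7.2 assembly the reads were aligned to) gave a start for 12 of the 17 listed smooth muscle contractile genes. Myh11, Tagln, Lmod1 and Myocd were not among the 12, so their promoters were not searched. The 250 bases before each start were searched on both strands for the CArG box, taken as the canonical box or with 1 of its 6 inner bases a C or G. A canonical box was found in 0 of the 12, against 1.5% of 27457 promoters of the same length. With 1 departure allowed, 1 of the 12 held a match, against 7.97% of all promoters. That promoter is the one of Acta2 (chr1:241172504-241172753, minus strand), with 2 such boxes, which end 125 and 75 bases before the start and stand in capitals. The window of Cnn1 (chr8:28908187-28908436, plus strand) held none and is printed for comparison. A match is a description of letters and not a measured binding site, and a window with no match says only that these letters are not in it.
Acta2: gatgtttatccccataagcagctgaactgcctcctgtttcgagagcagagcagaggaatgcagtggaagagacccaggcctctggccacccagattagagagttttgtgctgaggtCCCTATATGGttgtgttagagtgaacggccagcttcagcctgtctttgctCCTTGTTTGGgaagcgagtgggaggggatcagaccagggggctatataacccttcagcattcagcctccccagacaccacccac
Cnn1: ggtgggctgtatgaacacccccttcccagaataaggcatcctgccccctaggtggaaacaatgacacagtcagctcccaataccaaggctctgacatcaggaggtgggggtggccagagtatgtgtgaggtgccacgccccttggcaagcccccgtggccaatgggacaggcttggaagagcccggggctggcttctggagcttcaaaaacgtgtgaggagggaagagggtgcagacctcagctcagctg

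The 12 libraries held 15165520 to 18347983 counts on genes. Libraries of sham 5 and cell sheet 1 stood apart from the others of their groups: in a principal component analysis of the 500 most variable genes, sham 5 lay at 63.0 and cell sheet 1 at 35.4 on the first component (58.4% of the variance), and the other 10 between -19.5 and 9.45. Library weights estimated by limma were 0.113 for sham 5, 0.132 for cell sheet 1 and 0.938 to 2.33 for the others. Cardiomyocyte markers were high in every library (summed CPM of 18 sarcomere genes 46442.3 to 92938.6 in sham and 32622.7 to 90634.2 with the sheet), as the ventricular label asks. Of 17 marker lists of cell types, Myod1 of skeletal muscle was the one marker with no count in any of the 12 libraries. Results are therefore given with all 12 libraries and without these 2. No pair of libraries within a group was identical, and every pair differed by more than counting noise (chi-square per degree of freedom 8.44 to 330.3).

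**Figure D1:**
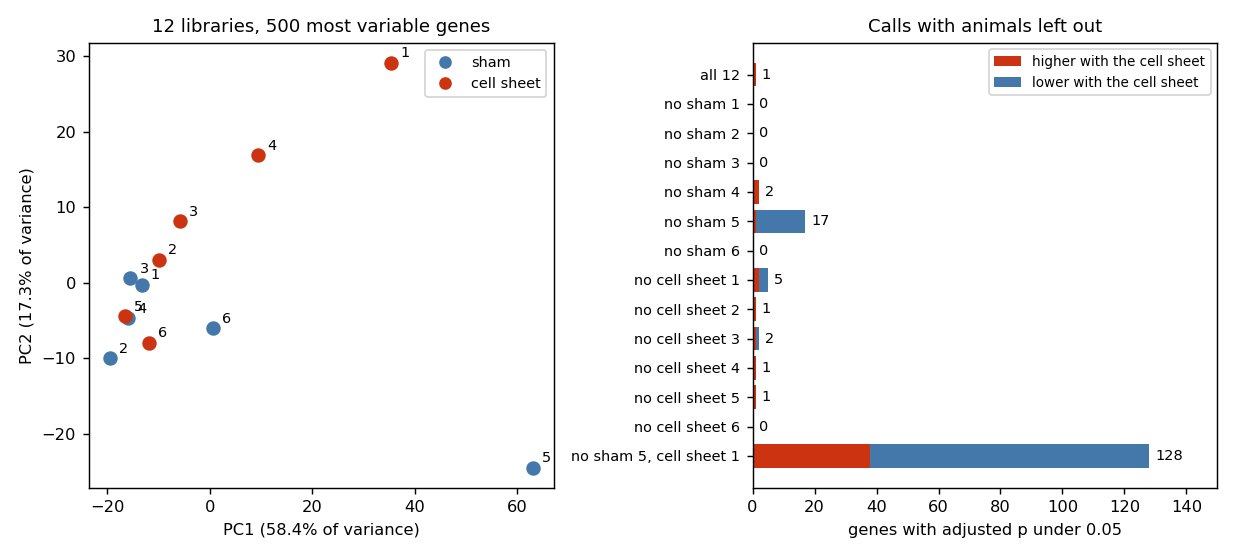
Left, scores of the 12 remote zone libraries on the first 2 principal components of log2 CPM, with replicate numbers beside the points (blue, sham; red, cell sheet). Right, the number of genes with an adjusted p under 0.05 (edgeR) with all 12 libraries, with each library left out, and without sham 5 and cell sheet 1, where it is 128 against 1 with all.

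With edgeR, few genes passed the adjusted test with all libraries, and more did once the 2 libraries were set aside. The count also moved with the method, to 180 with DESeq2 and 255 with limma library weights on the same 12 libraries. Of 15157 genes tested with edgeR's quasi-likelihood test, 1 passed an adjusted p under 0.05, which is 0.00660% of the genes, and that gene was Myh11. Without adjustment, 704 genes had a p under 0.05 and a higher value with the cell sheet (4.64%), and 816 had a lower value (5.38%). The CPM of the 2 groups did not overlap for 200 genes (1.32%), 118 higher (0.779%) and 82 lower (0.541%). Without sham 5 and cell sheet 1, 128 of 15122 genes passed (0.846%), 38 higher (0.251%) and 90 lower (0.595%), and 15.3% had an unadjusted p under 0.05 (7.70% higher, 7.60% lower). Without sham 5 alone 17 passed (0.111%), 1 higher (0.00654%) and 16 lower (0.105%). Without cell sheet 1 alone 5 passed (0.0328%), 2 higher (0.0131%) and 3 lower (0.0197%).

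In the same zone, untreated MI differed from sham in 3952 of 15294 genes (25.8%; 11.7% higher, 14.2% lower). The cell sheet group differed from untreated MI in 2623 of 15374 (17.1%; 10.3% higher, 6.79% lower). These counts moved with the same 2 libraries: without sham 5 the first was 7177, and without cell sheet 1 the second was 6450. The comparisons share libraries with the one described here, so their values stand side by side below without a test of the overlap.

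Myh11, the myosin heavy chain of contractile smooth muscle, was higher in every cell sheet library than in any sham library. Sham hearts had 35.4 to 66.0 CPM (median 42.9) and cell sheet hearts 88.7 to 181 CPM (median 150), so the groups did not overlap. Untreated MI hearts had 22.4 to 41.8 CPM (median 30.8) and lay below every cell sheet heart. The fitted log2 fold change of cell sheet over sham was 1.65 (SE 0.19, adjusted p = 0.0126), and it was 1.60 (adjusted p = 0.00147) without the 2 libraries. The value was 2.20 against untreated MI (adjusted p = 0.000169), while untreated MI against sham was -0.55 (adjusted p = 0.0302). The size of the difference moved little as libraries were left out (1.57 to 1.78), but its adjusted p was 0.0763, 0.0627, 0.072 and 0.0583 without sham 1, 2, 3 and 6, and 0.0548 without cell sheet 6.

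**Figure D2:**
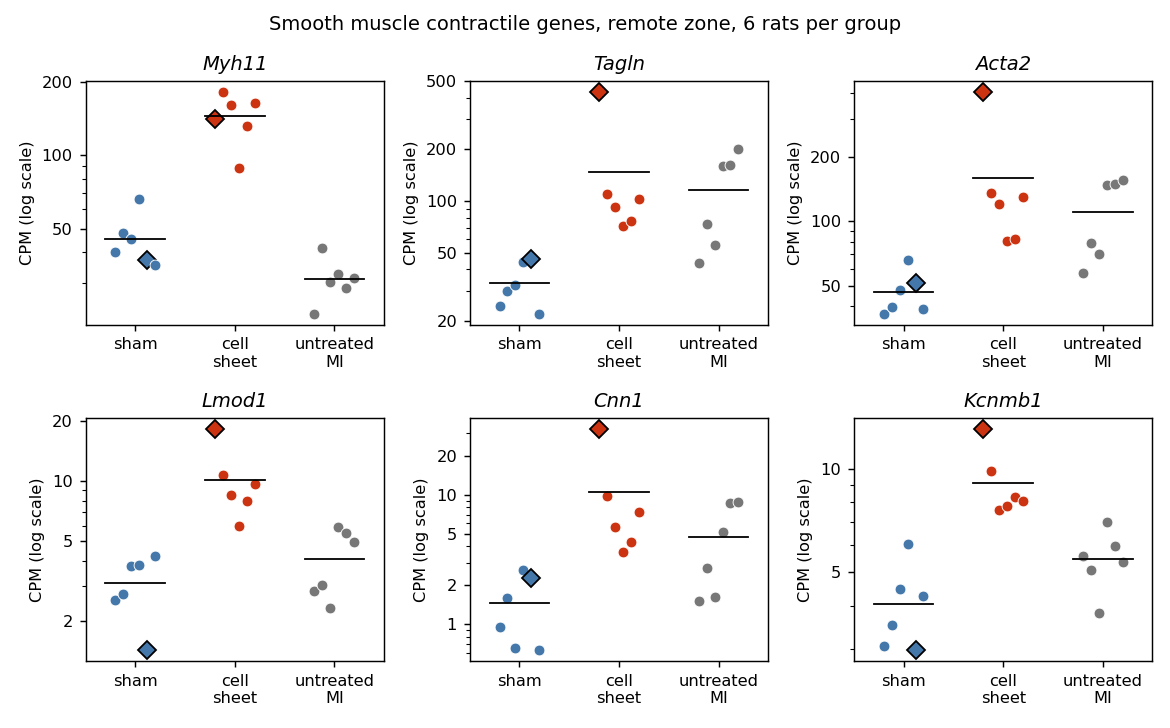
CPM on a log scale of 6 smooth muscle contractile genes in each remote zone library (6 per group; blue, sham; red, cell sheet; grey, untreated MI). Lines are means, and black-edged diamonds are sham 5 and cell sheet 1. All 6 cell sheet points lie above all 6 sham points in each panel, and for Myh11, Lmod1 and Kcnmb1 also above all untreated MI points.

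Most of the rest of the contractile set lay on the same side. Of 17 members tested, Myh11 included, 15 had a fitted fold change above 0. An unadjusted p under 0.05 and a higher value was found for 13, and 9 did not overlap between groups. The shares over all genes were the 4.64% and 0.779% above. The list was chosen with earlier results of these data known, so its counts are not independent support. The median log2 fold change of the list was 1.15 with all libraries, 0.90 without the 2 and 0.81 without cell sheet 1 alone, beside -0.01, 0.01 and -0.01 over all genes tested. The mean log2 CPM over the 17 genes ran from 4.32 to 4.78 in sham, 5.17 to 6.36 in cell sheet and 4.59 to 5.41 in untreated MI hearts. Cell sheet 1 was the highest, and the other 5 cell sheet hearts (up to 5.59) were still above all sham hearts. Without the 2 libraries, 9 members passed the adjusted test, each higher, beside 0.251% of all genes in that fit. They were Myh11, Tagln, Acta2, Lmod1, Tpm2, Cnn1, Actg2, Kcnmb1 and Itga8. In untreated MI, 8 members passed higher and 3 lower against sham, beside 11.7% and 14.2% of all genes, with a list median of 0.527. Cell sheet against untreated MI had 5 members passing, each higher, beside 10.3% of all genes, with a median of 0.505.

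Tagln, an actin-associated protein of the smooth muscle cytoskeleton, had 22.1 to 46.0 CPM in sham (median 31.1), 71.7 to 432 CPM with the sheet (median 97.9) and 43.8 to 201 CPM in untreated MI (median 116). The cell sheet and sham groups did not overlap, but cell sheet and untreated MI did. The fitted value over sham was 2.15 (SE 0.46, adjusted p = 0.149), 1.54 without the 2 libraries (adjusted p = 0.00142) and 1.42 without cell sheet 1 alone (adjusted p = 0.0476). Acta2, smooth muscle alpha actin, had 37.0 to 66.2 CPM in sham (median 43.7), 80.8 to 403 CPM with the sheet (median 125) and 57.2 to 156 CPM in untreated MI (median 114). The log2 fold change was 1.76 (SE 0.38, adjusted p = 0.149) and 1.24 without the 2 libraries (adjusted p = 0.00886). Both genes were higher in untreated MI than in sham too, by 1.80 (adjusted p = 0.00463) and 1.23 (adjusted p = 0.0056), and the cell sheet group did not pass the test against untreated MI for either (0.34, adjusted p = 0.654, and 0.52, adjusted p = 0.377).

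For Lmod1 and Kcnmb1, untreated MI hearts did not pass the test against sham. Lmod1, which nucleates smooth muscle actin filaments, had 1.43 to 4.21 CPM in sham (median 3.24), 5.95 to 18.3 CPM with the sheet (median 9.09) and 2.31 to 5.90 CPM in untreated MI (median 4.00). Kcnmb1 had 2.97 to 6.04 CPM in sham (median 3.90), 7.58 to 13.1 CPM with the sheet (median 8.18) and 3.81 to 7.03 CPM in untreated MI (median 5.47). For both, the cell sheet hearts overlapped with neither other group. The log2 fold changes over sham were 1.71 (SE 0.31) and 1.15 (SE 0.21), both with an adjusted p of 0.14, and without the 2 libraries they were 1.30 (adjusted p = 0.0096) and 0.93 (adjusted p = 0.0327). Against untreated MI they were 1.30 (adjusted p = 0.0168) and 0.72 (adjusted p = 0.0229), and untreated MI against sham was 0.41 (adjusted p = 0.348) and 0.43 (adjusted p = 0.154).

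Cnn1, calponin, was low in sham hearts (0.631 to 2.62 CPM, median 1.27) and had 3.63 to 32.2 CPM with the sheet (median 6.52), again without overlap. Its log2 fold change of 2.83 (SE 0.61, adjusted p = 0.149) was 2.21 without the 2 libraries (adjusted p = 0.0248). Actg2, the enteric smooth muscle actin, had 1.89 to 4.76 CPM in sham and 4.93 to 41.1 CPM with the sheet, with a log2 fold change of 2.38 (SE 0.48, adjusted p = 0.144) and of 1.73 without the 2 (adjusted p = 0.0253). Tpm2, a tropomyosin, and Itga8, an integrin of smooth muscle and fibroblasts, overlapped between groups. Their values without the 2 libraries were 0.90 (adjusted p = 0.00956) and 1.24 (adjusted p = 0.0371). Untreated MI medians were 3.95 CPM for Cnn1, 9.98 for Actg2, 72.5 for Tpm2 and 26.6 for Itga8. With the sheet they were 6.52, 10.6, 55.3 and 11.2 CPM, so the medians of Tpm2 and Itga8 were higher in untreated MI.

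Myocd, the coactivator itself, had 74.3 to 180 CPM in sham (median 149) and 49.9 to 157 CPM with the sheet (median 135), with a log2 fold change of -0.23 (SE 0.25, adjusted p = 0.817). Cardiomyocytes express Myocd too, and the lowest values of the 12 were those of sham 5 and cell sheet 1. Smtn, smoothelin, had 122 to 250 CPM in sham and 121 to 244 CPM with the sheet (log2 fold change -0.06, SE 0.19, adjusted p = 0.95). Myocd and Smtn were the 2 members of the list with a fitted value below 0.

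Outside the list, the gene with the second smallest p among those higher with the sheet was Susd5, a sushi domain membrane protein. It had 1.20 to 3.83 CPM in sham, 4.94 to 10.01 CPM with the sheet and 1.60 to 4.31 CPM in untreated MI, so the cell sheet hearts were above both. On the log2 scale it was 1.63 over sham (SE 0.28, adjusted p = 0.14), 1.64 without the 2 libraries (adjusted p = 0.0298) and 1.37 over untreated MI (adjusted p = 0.00938). Olr63, an olfactory receptor gene, had 4.00 to 6.78 CPM in sham and 8.83 to 14.3 CPM with the sheet (0.97, SE 0.18, adjusted p = 0.14; without the 2, 0.81, adjusted p = 0.0323). Cacna2d1, an auxiliary subunit of voltage-gated calcium channels, had 30.4 to 42.1 CPM in sham, 40.4 to 57.0 CPM with the sheet and 19.2 to 28.6 CPM in untreated MI. The cell sheet and sham ranges overlapped, but the gene passed without the 2 libraries (0.48, adjusted p = 0.0341) and against untreated MI (1.02, adjusted p = 0.00141).

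Pericytes share Notch receptors with smooth muscle and are told by other markers. Of 12 mural cell and pericyte genes, 4 had an unadjusted p under 0.05, each higher, beside 4.64% of all genes. Between groups 1 did not overlap, beside 0.779% of all genes higher. That gene was Notch3, the mural cell Notch receptor, with 61.2 to 95.3 CPM in sham (median 75.1), 102 to 166 CPM with the sheet (median 111) and 40.2 to 83.4 CPM in untreated MI (median 61.1). Its log2 fold change was 0.72 (SE 0.15, adjusted p = 0.144), 0.56 without the 2 libraries (adjusted p = 0.0419) and 0.97 over untreated MI (adjusted p = 0.00973). Cspg4, the NG2 proteoglycan of pericytes, had 34.0 to 47.8 CPM in sham, 46.3 to 73.7 CPM with the sheet and 26.4 to 44.6 CPM in untreated MI (0.48 over sham, SE 0.12, adjusted p = 0.199; 0.74 over untreated MI, adjusted p = 0.0109). Pdgfrb, the PDGF receptor that pericytes share with fibroblasts, had 89.9 to 121 CPM in sham and 105 to 358 CPM with the sheet (0.65, SE 0.28, adjusted p = 0.474; 0.30 without the 2, adjusted p = 0.235).

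The list medians stayed near that of all genes: 0.13 for the mural list (0.06 without the 2 libraries) and 0.05 for 14 Notch pathway genes (0.03). Of the Notch pathway, Notch3 was the 1 member with an unadjusted p under 0.05. Hey2, a transcriptional target of Notch, had 7.42 to 21.4 CPM in sham and 14.2 to 29.8 CPM with the sheet (0.37, SE 0.24, adjusted p = 0.65). Of 12 endothelial genes, 0 had an unadjusted p under 0.05 (edgeR) and 10 were below 0, with a median of -0.16. Without the 2 libraries, 6 had an unadjusted p under 0.05 and a lower value, beside 7.60% of all genes, and 0 passed the adjusted test. Kdr, the main VEGF receptor, had 187 to 290 CPM in sham and 135 to 264 CPM with the sheet (-0.23, SE 0.15, adjusted p = 0.654). Pecam1 had 215 to 351 CPM and 263 to 326 CPM (-0.07, SE 0.12, adjusted p = 0.893).

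Among 17 tested angiogenic factors and receptors, 2 had an unadjusted p under 0.05, each higher, beside 4.64% of all genes, and the median was -0.03. Cxcl12, a chemokine that draws progenitor cells, had 234 to 398 CPM in sham, 216 to 338 CPM with the sheet and 180 to 293 CPM in untreated MI (-0.27 over sham, SE 0.15, adjusted p = 0.583). Ndnf, a secreted angiogenic factor, was too low to be tested, at 0.201 to 7.48 CPM in sham and 0 to 5.12 CPM with the sheet. Adam12, a metalloprotease, had 0.0671 to 3.43 CPM in sham, and its 115 CPM in cell sheet 1 was the highest of all 18 remote libraries; the median with the sheet was 2.501 CPM. The fitted value of 4.16 (SE 1.31, adjusted p = 0.359) was 2.04 without cell sheet 1 (adjusted p = 0.499).

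**Figure D3:**
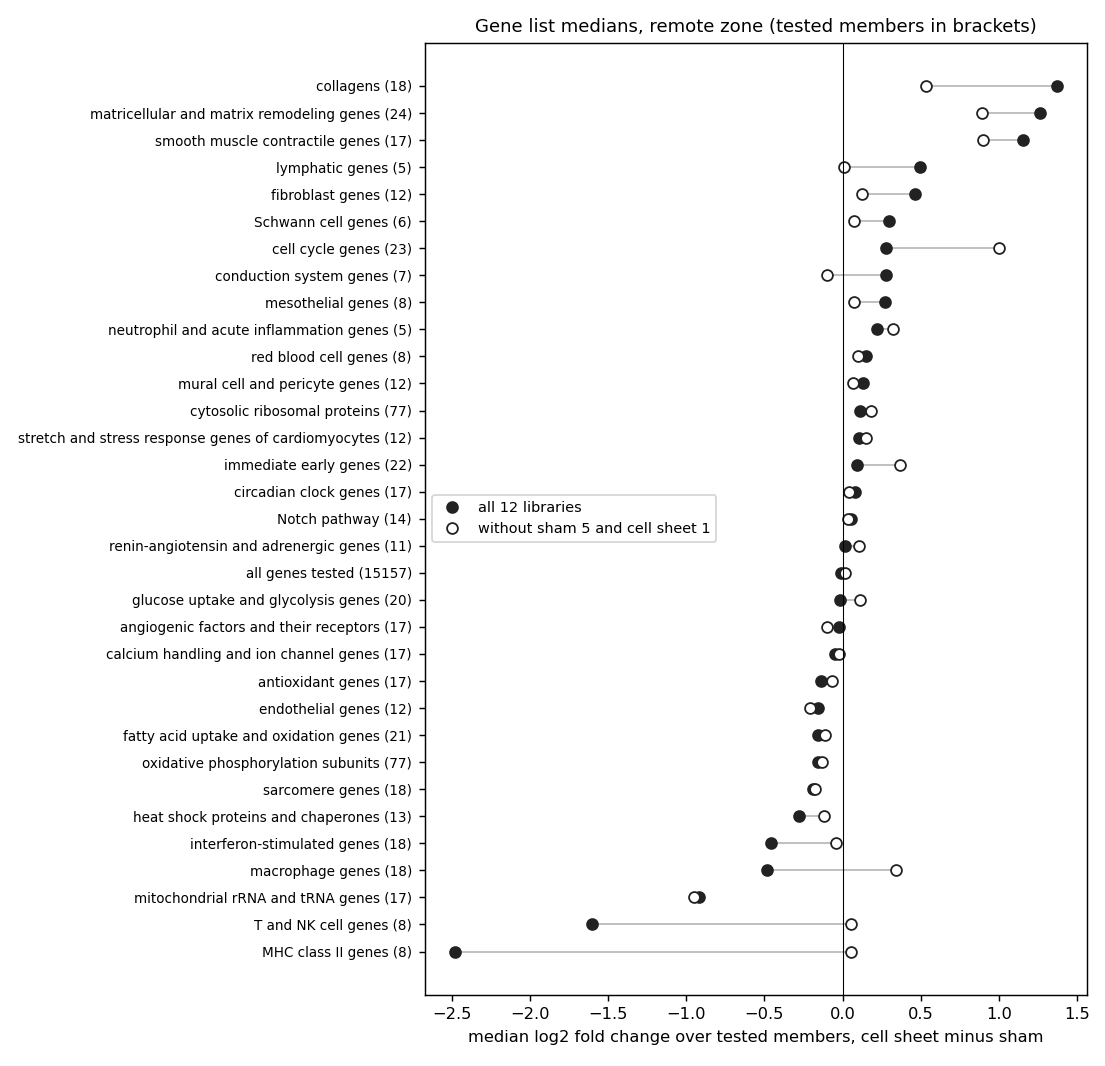
Median log2 fold change (cell sheet minus sham, remote zone) over the tested members of each gene list with 5 or more tested members, with all 12 libraries (filled) and without sham 5 and cell sheet 1 (open). Among the lists away from 0 in both are smooth muscle contractile genes (1.15 and 0.90) and mitochondrial rRNA and tRNA genes (-0.92 and -0.95). Matricellular and matrix remodeling genes (1.26 and 0.89) and collagens (1.37 and 0.53) are too, and are at 0.40 and 0.41 without cell sheet 1 alone. MHC class II genes go from -2.48 to 0.05.

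Fitted values of matrix genes were above 0, and they were smaller without 1 heart, cell sheet 1. Of 18 collagens all 18 were above 0, and 13 had an unadjusted p under 0.05, beside 4.64% of all genes higher at that level. The median of 1.37 was 0.41 without cell sheet 1 and 0.53 without both libraries. In the fit without both, 4 of 17 tested had an unadjusted p under 0.05, each higher, beside 7.70% of all genes. There 0 passed the adjusted test (edgeR). Col1a1, the main chain of fibrillar collagen I, had 527 to 1015 CPM in sham (median 653), 426 to 10868 CPM with the sheet (median 812) and 944 to 5284 CPM in untreated MI (median 2816). Cell sheet 1 held the highest value and cell sheet 4 the next, at 2360 CPM, whereas cell sheet 2, 5 and 6 lay within 426 to 579 CPM, inside or below the sham range. The fitted value of 1.93 (SE 0.77, adjusted p = 0.457) was 0.47 without cell sheet 1 (adjusted p = 0.731).

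Col3a1, which goes with Col1a1 in scar, had 1169 to 2110 CPM in sham and 1210 to 17518 CPM with the sheet (1.65, SE 0.64; 0.61 without cell sheet 1, adjusted p = 0.605). Col12a1, a collagen that decorates fibrils, had the smallest p of the collagens, with 6.10 to 12.5 CPM in sham and 10.4 to 626 CPM with the sheet (4.00, SE 1.06, adjusted p = 0.232; 1.89 without the 2 libraries, adjusted p = 0.0669). The chains of collagen VI, a pericellular collagen, were 0.58 (SE 0.39) for Col6a1, 0.56 (SE 0.39) for Col6a2 and 1.26 (SE 0.53) for Col6a3, with adjusted p of 0.661, 0.672 and 0.465. Without cell sheet 1 they were 0.09, 0.04 and 0.31. Untreated MI passed the test against sham for Col1a1 (2.11, adjusted p = 0.00274), Col3a1 (2.10, adjusted p = 0.00171) and Col12a1 (3.33, adjusted p = 0.00139).

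Of 24 tested matricellular and matrix remodeling genes, 23 were above 0 and 15 had an unadjusted p under 0.05, each higher, beside 4.64% of all genes. Their median of 1.26 was 0.40 without cell sheet 1, 1.87 without sham 5 and 0.89 without both. Postn, periostin of activated fibroblasts, had 17.9 to 37.5 CPM in 5 sham hearts and 296 CPM in sham 5. With the sheet it had 26.0 to 308 CPM in 5 hearts and 2798 CPM in cell sheet 1 (2.97, SE 1.23, adjusted p = 0.464; without both, 2.17, adjusted p = 0.0964). Eln, elastin, had 124 to 188 CPM in sham and 143 to 2211 CPM with the sheet (2.19, SE 0.64, adjusted p = 0.305; without both, 1.32, adjusted p = 0.196). Cthrc1, a secreted protein of reparative fibroblasts, was 4.20 (SE 1.23, adjusted p = 0.305; 2.13 without cell sheet 1 and 2.88, adjusted p = 0.0919, without both) and Comp, cartilage oligomeric matrix protein, 1.95 (SE 0.67, adjusted p = 0.392). In untreated MI, 22 members of this list passed the test against sham, each higher, beside 11.7% of all genes, and the list median was 1.81.

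The median of 12 fibroblast marker genes was 0.46, and 0.12 without the 2 libraries. Fmod, fibromodulin, a proteoglycan that binds collagen, had the smallest p of them, with 2.19 to 9.83 CPM in sham, 4.80 to 27.2 CPM with the sheet and 3.41 to 8.05 CPM in untreated MI (1.38, SE 0.47, adjusted p = 0.39). In untreated MI, 10 of the 12 passed against sham, each higher, beside 11.7% of all genes. The summed CPM of the fibroblast list was 1779.2 to 2193.3 in sham and 1817.1 to 5132.9 with the sheet, and the part of cell composition in the matrix values was not tested.

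Of 17 calcium handling and ion channel genes of heart muscle, 1 was higher and 1 lower at an unadjusted p under 0.05. The shares over all genes were 4.64% and 5.38%, and the median of the list was -0.05 against sham. None passed the adjusted test (edgeR) with all 12 libraries, where 0.00660% of all genes did, and 1, Cacna2d1, passed it without the 2 libraries. In untreated MI the median against sham was -0.89 and 12 passed, each lower, beside 14.2% of all genes lower there. The cell sheet group had a median of 0.90 over untreated MI, with 10 members passing, each higher, beside 10.3% of all genes higher there. Atp2a2, the calcium pump of the sarcoplasmic reticulum, had 6030 to 11568 CPM in sham (median 11164), 4386 to 13738 CPM with the sheet (median 10159) and 3250 to 6589 CPM in untreated MI (median 4119). Its log2 fold change was -0.07 over sham (SE 0.29, adjusted p = 0.97) and 1.13 over untreated MI (adjusted p = 0.0241).

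Fatty acid uptake and oxidation genes had a median of -0.16 with 0 of 21 at an unadjusted p under 0.05 (edgeR) against sham. In untreated MI their median was -0.87 and 15 passed against sham, each lower, beside 14.2% of all genes lower there. Glucose uptake and glycolysis genes had medians of -0.02 and, in untreated MI, -0.45 with 11 passing, each lower, beside the same 14.2%. For 77 oxidative phosphorylation subunits the medians were -0.16 and -0.21, for 18 sarcomere genes -0.19 and -0.61, and for 77 cytosolic ribosomal proteins 0.11 and 0.59. A p that missed the threshold in the cell sheet group does not show that it equals sham.

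Among the stretch and stress genes of cardiomyocytes, 1 of 12 had an unadjusted p under 0.05 and was higher, beside 4.64% of all genes. Nppa and Nppb, the natriuretic peptides, spread widely within groups. Nppa had 250 to 3547 CPM in sham (median 665), 553 to 5792 CPM with the sheet (median 1630) and 1520 to 11802 CPM in untreated MI (median 3687), with a log2 fold change over sham of 0.89 (SE 0.74, adjusted p = 0.74). That value was 1.62 without sham 5 (adjusted p = 0.31), 0.35 without cell sheet 1 (adjusted p = 0.897) and 1.07 without both (adjusted p = 0.398). Nppb had 196 to 640 CPM in sham and 259 to 634 CPM with the sheet (0.14, SE 0.33, adjusted p = 0.931). Ankrd1, a stretch-responsive titin partner, was -0.10 (SE 0.29, adjusted p = 0.947) and Acta1, skeletal alpha actin, 0.09 (SE 0.32, adjusted p = 0.96).

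In the myosin heavy chains of heart muscle, cell sheet 3 stood apart from its group in both chains and sham 5 in Myh6. Rat ventricle normally uses Myh6, the fast alpha chain, and raises Myh7, the slow beta chain, under load or low thyroid hormone. Myh6 had 12543 to 14708 CPM in 5 sham hearts and 5894 CPM in sham 5; with the sheet it had 3820 to 14051 CPM in 5 hearts and 194 CPM in cell sheet 3. Myh7 had 1519 to 4438 CPM in sham and 1061 to 2593 CPM in 5 cell sheet hearts, but 23719 CPM in cell sheet 3. The same rat had 14447 CPM of Myh7 in its border zone, where the other 5 had 44.3 to 3760 CPM, and 116 CPM of Myh6 there, within the 12.6 to 5422 CPM of the others. In its infarct zone Myh7 was at 367 CPM, within the 111 to 2820 CPM of the other 5, and Myh6 at 2.91 CPM, below their 57.5 to 5438 CPM. The group value for Myh7 was 1.20 (SE 0.71, adjusted p = 0.619), and it was -0.28 without cell sheet 3 (adjusted p = 0.847).

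**Figure D4:**
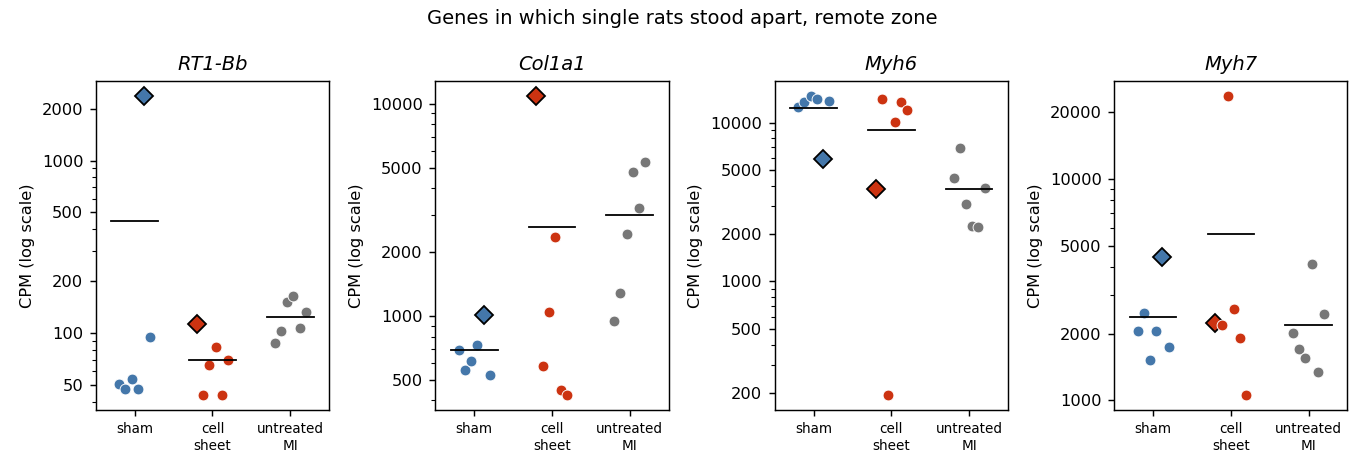
CPM on a log scale of RT1-Bb, Col1a1, Myh6 and Myh7 in each remote zone library (6 per group; lines are means; black-edged diamonds are sham 5 and cell sheet 1). Sham 5 stands at 2369 CPM for RT1-Bb, cell sheet 1 at 10868 CPM for Col1a1, and cell sheet 3 is the cell sheet point lowest in Myh6 (194 CPM) and highest in Myh7 (23719 CPM).

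Fitted values of immune genes were mostly below 0, and this rested on sham 5. All 8 MHC class II genes were below 0, and 6 had an unadjusted p under 0.05, beside 5.38% of all genes lower at that level. Their median of -2.48 was 0.27 without sham 5. RT1-Bb, a class II beta chain, had 47.1 to 94.9 CPM in 5 sham hearts, 2369 CPM in sham 5 and 43.8 to 112 CPM with the sheet (-2.72, SE 1.07, adjusted p = 0.442; 0.23 without sham 5, adjusted p = 0.687). Cd74, the class II invariant chain, had 467 to 617 CPM in 5 sham hearts and 6948 CPM in sham 5. Cd2, a T and NK cell surface protein, had 1.73 to 6.17 CPM in 5 sham hearts and 68.6 CPM in sham 5. All 3 genes were high in the other zones of the same rat as well, with RT1-Bb at 3101 CPM in the border and 2575 CPM in the infarct position against at most 97.7 CPM in any other sham heart.

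The T and NK cell list went from a median of -1.60 to 0.13 without sham 5, the macrophage list from -0.48 to 0.87, and the interferon-stimulated list from -0.46 to -0.07. Cd163, a scavenger receptor of resident macrophages, had 17.4 to 34.3 CPM in sham, 25.7 to 70.3 CPM with the sheet and 33.8 to 95.9 CPM in untreated MI (0.86, SE 0.28, adjusted p = 0.36; without both libraries 0.62, adjusted p = 0.264). The cell cycle list had a median of 0.28 with 0 of 23 at an unadjusted p under 0.05 (edgeR). Without both libraries its median was 1.00, with 16 at that level, each higher, beside 7.70% of all genes. There 0 passed the adjusted test. Cdk1, the mitotic kinase, had 1.85 to 3.99 CPM in 5 sham hearts, 18.6 CPM in sham 5, 3.65 to 22.3 CPM with the sheet and 12.9 to 37.4 CPM in untreated MI (0.96, SE 0.66, adjusted p = 0.669). Its log2 fold change was 1.89 without sham 5 (adjusted p = 0.168), 0.63 without cell sheet 1 (adjusted p = 0.779) and 1.55 without both (adjusted p = 0.12).

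Among lower genes, Kdm6b and Med13 had the smallest p. Kdm6b, a histone H3K27 demethylase, had 90.8 to 107.7 CPM in sham (median 100), 58.6 to 76.9 CPM with the sheet (median 72.2) and 48.6 to 84.4 CPM in untreated MI (median 62.4). The cell sheet and sham groups did not overlap. Its log2 fold change was -0.52 (SE 0.07, adjusted p = 0.0597), and it was -0.52 without sham 5 (adjusted p = 0.0244), -0.48 without cell sheet 1 (adjusted p = 0.0353) and -0.48 without both (adjusted p = 0.00383). Untreated MI was lower than sham too (-0.62, adjusted p = 0.00307).

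Med13, a subunit of the Mediator kinase module that in heart is known to bear on energy metabolism, had 83.6 to 101 CPM in sham (median 90.6), 57.1 to 68.9 CPM with the sheet (median 60.4) and 63.5 to 95.2 CPM in untreated MI (median 84.7). Sham and cell sheet hearts did not overlap, and the value was -0.58 (SE 0.08, adjusted p = 0.0597). It was -0.54 without sham 5 (adjusted p = 0.0244), -0.61 without cell sheet 1 (adjusted p = 0.0301) and -0.58 without both (adjusted p = 0.00147). Untreated MI did not pass against sham (-0.14, adjusted p = 0.298), and the cell sheet group was lower than untreated MI (-0.43, adjusted p = 0.0185). Drosha, the nuclear nuclease of microRNA processing, had 62.5 to 76.7 CPM in sham, 43.0 to 59.4 CPM with the sheet and 42.3 to 54.7 CPM in untreated MI. Its log2 fold change over sham was -0.51 (SE 0.09, adjusted p = 0.14), and it was -0.51 without both (adjusted p = 0.00512). Ccni, an atypical cyclin, had 209 to 260 CPM and 150 to 204 CPM (-0.52, SE 0.09, adjusted p = 0.14; without both -0.51, adjusted p = 0.0262), and at 235 to 308 CPM untreated MI lay above every cell sheet heart.

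Samd4a, an RNA-binding translational repressor, and Nfia, a nuclear factor I transcription factor, passed the adjusted test once sham 5 was left out. Samd4a had 31.4 CPM in sham 5, 59.1 to 66.3 CPM in the other sham hearts and 32.6 to 39.6 CPM with the sheet (-0.64, adjusted p = 0.159; without sham 5, -0.76, adjusted p = 0.00166). Nfia had 124 CPM in sham 5, 172 to 189 CPM in the other sham hearts and 114 to 132 CPM with the sheet (-0.50, adjusted p = 0.14; without sham 5, -0.58, adjusted p = 0.00652). An uncharacterised locus, LOC120098203, had 2.91 CPM in sham 5, 15.1 to 20.5 CPM in the other sham hearts and 2.43 to 5.98 CPM with the sheet (-1.86, adjusted p = 0.144; without sham 5, -2.07, adjusted p = 0.00358). Sham 5 lay within or below the cell sheet range for these 3 genes.

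The mitochondrial genome encodes its own ribosomal RNAs and transfer RNAs, and 24 of these genes were listed, 17 of them high enough to test. The list was drawn up after the values were seen, so no p-value on it counts as support. All 17 were below 0 with the sheet, and the median was -0.92. An unadjusted p under 0.05 was found for 14 and no overlap for 1, beside 5.38% and 0.541% of all genes lower. Without the 2 libraries 14 of the 90 lower genes that passed were of this list, whose median was -0.95. In that fit 0.595% of all genes passed and were lower. Trnt, the mitochondrial threonine tRNA, had 6.11 to 12.6 CPM in sham, 1.25 to 4.28 CPM with the sheet and 4.13 to 17.5 CPM in untreated MI (-1.81, SE 0.28, adjusted p = 0.0794; without sham 5, -1.92, adjusted p = 0.0157; without cell sheet 1, -1.65, adjusted p = 0.0395). Trnh, the histidine tRNA, had 48.1 to 66.9 CPM in 5 sham hearts, 17.8 CPM in sham 5 and 7.87 to 23.1 CPM with the sheet (-1.73, SE 0.32, adjusted p = 0.14; without both -1.77, adjusted p = 0.000373). Trnl1, a leucine tRNA, was -1.15 (SE 0.27, adjusted p = 0.166) and -1.16 without both (adjusted p = 0.000703).

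Measures of the whole library were compared as well, and 1 of the 7, the mitochondrial share, sums these same transcripts. No association of the other measures with these transcripts was tested. Mitochondrial rRNA and tRNA genes took 1.82% ± 0.596 of gene counts in sham and 1.12% ± 0.295 with the sheet (SD, 6 libraries each; exact permutation test, p = 0.0108, adjusted p = 0.0378 over 7 library measures); in untreated MI the share was 2.35% ± 0.563. With 1 library left out, the call between sham and cell sheet was lost in 7 of 12 cases, without sham 6 or any 1 of the cell sheet libraries (adjusted p = 0.053 to 0.0985, exact permutation tests), and it held without sham 5 and cell sheet 1 together (adjusted p = 0.0185). Because the list was drawn up after its values were seen, these p-values of the mitochondrial share are not support for a difference. Reads aligned to more than 1 place made up 3.62% to 5.84% of all counts in sham and 2.51% to 3.19% with the sheet, without overlap (exact permutation test, p = 0.00216, the smallest that 6 against 6 can give, adjusted p = 0.0151). Reads on no gene made up 20.9% to 34.0% in sham and 18.1% to 26.6% with the sheet (exact permutation test, p = 0.026, adjusted p = 0.0607). Poly(A) selection enriches messenger RNA and mitochondrial tRNAs reach such libraries only in part; the part of library composition in these gene values was not tested. Ambiguous reads, hemoglobin genes, the 10 most abundant genes and the number of genes detected did not pass, with adjusted p of 0.505, 0.505, 0.667 and 0.505 (exact permutation tests).

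**Figure D5:**
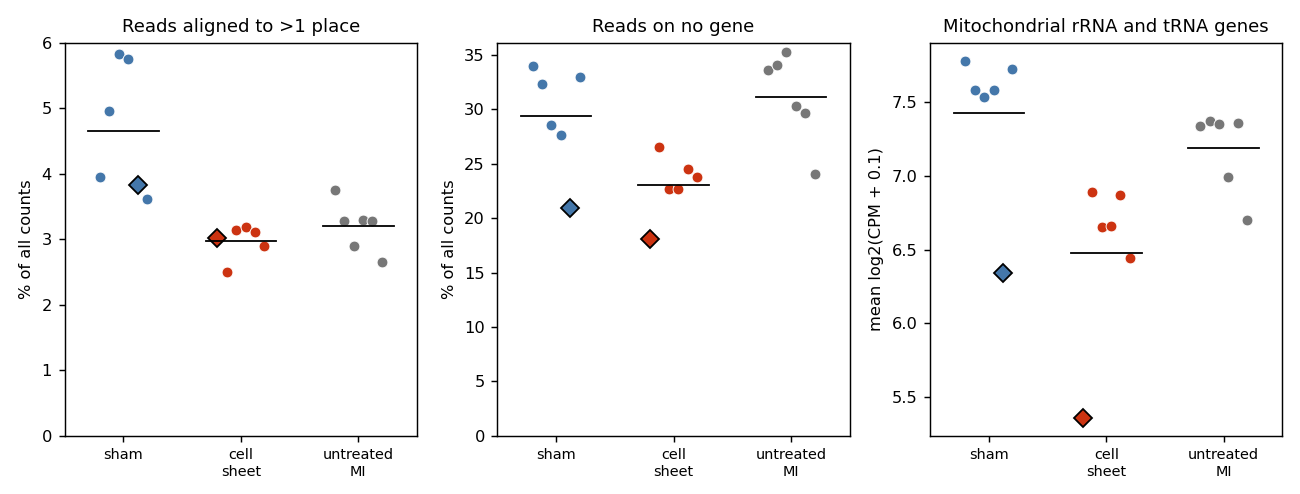
Reads aligned to more than 1 place and reads on no gene, as percent of all counts of a library, and the mean log2(CPM + 0.1) of mitochondrial rRNA and tRNA genes, in each remote zone library (6 per group; lines are means; black-edged diamonds are sham 5 and cell sheet 1). For the first measure all cell sheet points (2.51% to 3.19%) lie below all sham points (3.62% to 5.84%).

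Of heat shock proteins and chaperones 3 of 13 had an unadjusted p under 0.05, each lower, beside 5.38% of all genes lower at that level, with a median of -0.28 (-0.12 without the 2 libraries). Of clock genes 2 of 17 had one, each higher, beside 4.64% of all genes. Per2, a repressor of the clock loop, had 12.1 to 19.2 CPM in sham and 14.2 to 33.1 CPM with the sheet (0.60, SE 0.20, adjusted p = 0.375). Medians were 0.09 for immediate early genes, -0.14 for antioxidant genes, 0.02 for renin-angiotensin and adrenergic genes and 0.15 for red blood cell genes. Atrial markers were uneven between pieces: the summed CPM of 5 atrial genes was 5.87 to 477 in sham and 9.64 to 176 with the sheet. For lymphatic, mesothelial, conduction system and Schwann cell genes the medians were 0.49, 0.27, 0.28 and 0.30, and 0.01, 0.07, -0.10 and 0.07 without the 2 libraries.

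The effect of infarction and sheet together (cell sheet against sham) in the remote zone was then set against that of the other 2 zones. All zones came from the same hearts, and the zone by treatment term was tested within animals. Cell sheet against sham passed the test for 43.6% of genes in the border zone (20.4% higher, 23.2% lower) and for 57.9% in the infarct zone (28.6% higher, 29.2% lower). The effect differed from that of the border zone for 7264 of 16518 genes (44.0%; 22.5% higher, 21.4% lower in the remote zone) and from that of the infarct zone for 8543 of 16455 (51.9%; 27.1% higher, 24.9% lower). For the border zone, 3723 of the 7264 had a higher value in the remote zone, and 2686 of 7850 when libraries were scaled by size alone; for the infarct zone the counts were 4453 of 8543 and 3304 of 9134, so the split depends on the scaling. All 18 collagens had a lower value in the remote zone than in either other zone. The term passed for 17 of them against the border zone and for 18 against the infarct zone, beside 21.4% and 24.9% of all genes lower. Of 17 smooth muscle genes, 14 and 13 had a lower value in the remote zone. The term passed for 6 and 12 of these, and for 1 and 2 members with a higher value. The term passed for 77 of 78 tested oxidative phosphorylation subunits against the border zone and for all 77 tested against the infarct zone, each with a higher value in the remote zone.

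For Myh11 the term did not pass. Its log2 fold change over sham was 1.65 in the remote, 2.01 in the border and 2.33 in the infarct zone, and the difference did not pass for either pair (-0.45, adjusted p = 0.113, and -0.71, adjusted p = 0.0674). For Acta2 the values were 1.76, 2.89 and 3.90, and both differences passed (-1.39, adjusted p = 0.00367, and -2.20, adjusted p = 0.0027). For Col1a1 they were 1.93, 4.14 and 4.50 (-3.37, adjusted p = 0.00278, and -3.67, adjusted p = 0.000707). Notch3 had 0.72, 2.08 and 1.84, with differences of -1.46 (adjusted p = 0.000427) and -1.16 (adjusted p = 0.00041). Med13 had -0.58 in the remote zone, 0.07 in the border and -0.16 in the infarct zone, and its differences of -0.67 (adjusted p = 0.000335) and -0.40 (adjusted p = 0.00136) passed with the larger effect in the remote zone.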

How the data were processed

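PolyA RNA was sequenced from 3 left ventricular zones of 18 rat hearts. The deposited tables hold whole-number counts of reads per gene, 1 table per library. Per the labels and the methods, the authors aligned reads with STAR to mRatBN7.2 and used DESeq2; the counter's strand setting was not given in the sources used here. The 5 summary lines of each table (reads on no gene, ambiguous and others) held 23.4% to 40.3% of the counts of the 12 libraries and stayed out of library sizes and tests. Mitochondrial protein-coding genes were not analysed here.

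Counts were fitted in R 4.3.3 with edgeR 4.0.16 (filterByExpr, TMM, quasi-likelihood test, Benjamini-Hochberg, threshold 0.05), 6 cell sheet against 6 sham libraries, and the self-test on simulated counts was run first. The zone by treatment term was fitted with the animal as block. CPM were scaled with TMM factors over all 54 libraries, and fits with factors over their own libraries, so a ratio of CPM can depart from a fitted value. List scores were means of log2(CPM + 0.1). Library measures took an exact permutation test, two-sided. Alternatives were DESeq2 1.42.0, limma 3.58.1 with library weights, other filters, library size scaling, a replicate block, shared fits and each library left out. The same-numbered animals are different rats, and 2 of 6 correlations of their deviations were over 0.1.

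The members and lists were chosen with earlier results of these data known, and the mitochondrial list was added after its values were seen. Named genes were those past the threshold in the main fit or without sham 5, cell sheet 1 or both, the 5 higher and 5 lower with the smallest p, genes the study names, and up to 3 of each list with a fixed set beside them; only part of those named by the rule are described.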

Additional observations from a re-analysis of the deposited data

Results flagged for a closer look

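In groups of 6 libraries, a library was marked where its gap to the nearest other exceeded Dixon's 95% critical share of the group's range, which chance does in about 1 in 20 groups. Of 202 groups, 48 held such a library, 27 of them sham 5 and 14 cell sheet 1.

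Sham 5 was low in CPM for Myocd (74.27), Smtn (122), Myh6 (5894.1), Atp2a2 (6029.9), Drosha (62.51), Samd4a (31.4), Nfia (123.5), Trnh (17.75), Trnl1 (95.11) and LOC120098203 (2.911). It was high for Postn (295.5), RT1-Bb (2368.8), Cd74 (6948.1), Cd2 (68.56) and Cdk1 (18.61). Its mean log2 CPM was low for endothelial (6.64), sarcomere (10.7), calcium handling (7.29), oxidative phosphorylation (8.02), fatty acid (6.82), adipocyte (5) and mitochondrial RNA genes (6.34). It was high for macrophage (7.29), T and NK cell (5.08), MHC class II (10) and cell cycle genes (4.86). Its 10 most abundant genes took 6.328% of gene counts.

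Cell sheet 1 was high in CPM for Tagln (432), Acta2 (402.5), Tpm2 (197.8), Itga8 (92.83) and Pdgfrb (358.3), and low for Myocd (49.94), Smtn (121.4), Kdr (135) and Trnl1 (45.54). Its mean log2 CPM was 6.36 for smooth muscle, 10.3 for sarcomere, 7.01 for calcium handling and 5.36 for mitochondrial RNA genes, and mitochondrial rRNA and tRNA took 0.5547% of its gene counts. Cell sheet 3 stood apart in Myh6 (193.6 CPM) and Myh7 (23718.5 CPM), cell sheet 6 in Cd2 (4.798 CPM) and sham 2 in Acta1 (150.1 CPM). Sham 6 stood apart in atrial genes (7.65 on the mean log2 CPM scale) and in mitochondrial rRNA and tRNA (2.937% of gene counts), and sham 3 in hemoglobin genes (0.3045% of gene counts).

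The zone by treatment term passed an adjusted p under 0.05 (edgeR) for 25 of the 57 genes named here against the border zone and for 40 of 57 against the infarct zone. Over all genes tested the shares were 44.0% and 51.9%, so the border zone count was about that of all genes. Values are the log2 fold change of the remote zone minus that of the other zone. Against the border zone, smooth muscle and mural genes had -0.909 (Tagln), -1.39 (Acta2), -0.942 (Lmod1), -1.99 (Itga8), -1.46 (Notch3) and -1.01 (Pdgfrb). Matrix genes and Adam12 had -3.37 (Col1a1), -2.38 (Col3a1 and Col6a3), -3.83 (Col12a1), -2.19 (Col6a1), -2.14 (Col6a2), -3.6 (Postn), -3.21 (Cthrc1) and -4.16 (Adam12). The others were 0.986 (Hey2), 1.25 (Atp2a2), -0.898 (RT1-Bb), -1.61 (Cd163), -0.606 (Kdm6b), -0.672 (Med13), -0.309 (Nfia), 0.813 (Trnl1), -0.991 (Olr63) and -5.26 (Ndnf).

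Against the infarct zone, smooth muscle and mural genes had -2.25 (Tagln), -2.2 (Acta2), -1.39 (Lmod1), -3.16 (Cnn1), -1.44 (Kcnmb1), -2.5 (Actg2), -2.13 (Tpm2), -2.41 (Itga8), 2.19 (Myocd), 0.49 (Smtn), -1.16 (Notch3) and -1.36 (Pdgfrb). Matrix genes and Adam12 had -3.67 (Col1a1), -2.43 (Col3a1), -4.53 (Col12a1), -2.1 (Col6a1), -2.08 (Col6a2), -2.29 (Col6a3), -4.63 (Postn), -1.41 (Eln), -4.39 (Cthrc1), -2.98 (Comp) and -5.01 (Adam12). Cardiomyocyte genes had 2.13 (Nppb), 3.92 (Myh6), 1.74 (Ankrd1), 3 (Atp2a2) and 0.668 (Cacna2d1). The others were 1.11 (Hey2), 0.96 (Kdr), -1.52 (RT1-Bb), -0.397 (Med13), -0.247 (Drosha), -0.35 (Ccni), 2.59 (Trnt), 1.79 (Trnh), 2.07 (Trnl1), -1.13 (Olr63), 1.35 (LOC120098203) and -4.99 (Ndnf).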

How the results depend on the processing

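The count of genes past the threshold, 1 with edgeR, was 180 with DESeq2 (90 higher), 255 with library weights (101 higher), 20 with the 18 remote libraries in 1 fit, 183 with all 54 libraries, 128 without sham 5 and cell sheet 1, and 0 to 17 with 1 library left out. It was 0 without sham 1, 2 or 6 or without sham 3 or cell sheet 6 (1272 to 1527 genes with an unadjusted p under 0.05). With the replicate block it was 0 (975 unadjusted), and Myh11 had 1.65 (adjusted p = 0.567) with that block; the numbers do not pair the animals. Without sham 5, untreated MI against sham had 7177 genes, and without cell sheet 1 the cell sheet group against untreated MI had 6450; both were chosen after seeing the data.

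Reads on no gene differed by -7.042 percentage points without the 2 libraries (adjusted p = 0.0185, exact permutation test) and by -8.044 to -5.345 with 1 left out. The mitochondrial share differed by -0.8176 to -0.4696 points with 1 left out, with adjusted p from 0.053 to 0.0985 (exact permutation test) without sham 6 or any 1 of the cell sheet libraries. Its list was drawn up after the values were seen, so p-values of this share are not support for a difference. List medians without the 2 libraries were 0.00644 for lymphatic, 0.0525 for T and NK cell, 0.0513 for MHC class II and -0.103 for conduction genes. With 1 library left out they ran from 0.805 to 1.21 for smooth muscle, 0.0814 to 0.62 for lymphatic, 0.411 to 1.55 for collagens, -0.88 to 0.865 for macrophage, -0.605 to 0.394 for neutrophil, -1.83 to 0.125 for T and NK cell, -2.73 to 0.27 for MHC class II, 0.0799 to 1.29 for cell cycle, -0.327 to 0.408 for skeletal muscle, -0.933 to 2.57 for atrial and -0.079 to 0.352 for conduction genes.

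The sign turned with library weights for Col6a1 (-0.0002344), Col6a2 (-0.04089), Acta1 (-0.003639) and Ankrd1 (0.07375), and without the 2 libraries for Ankrd1 (0.05999) and RT1-Bb (0.03208). With 1 library left out it ran from -0.1827 to 0.04948 for Smtn, -0.008345 to 0.342 for Nppb and -0.1783 to 0.08287 for Atp2a2 (turned without cell sheet 1), -0.2774 to 1.481 for Myh7 (without cell sheet 3), -0.1142 to 0.2388 for Acta1 (without sham 2 or cell sheet 4), -0.2123 to 0.1138 for Ankrd1 (without sham 5 or cell sheet 6) and -2.961 to 0.2346 for RT1-Bb (without sham 5). Beyond leaving libraries out, the cause was not tested. At 15165520 to 18347983 gene counts, genes under the filter, such as Ndnf, were not tested in the fit of the 12 libraries.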
